A study of Mus musculus with 10 samples.

Results

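Bmp8b and 9 other genes of bone morphogenetic protein (BMP) signalling were followed in brown fat, the tissue that burns fuel to make heat. The 10 genes are the ligands Bmp8b, Bmp8a, Bmp7, Bmp4 and Bmp2, the receptors Bmpr1a, Acvr1c, Bmpr2 and Acvr2b, and the transcription factor Smad9, out of 32889 genes in the expression table. They were chosen on the count values of these same libraries, so their values are given as a description, and an adjusted p-value beside a member gives its place in the fit of the whole table and is no independent support. All mice were wild-type C57BL/6J. The 3 obesity-prone and the 3 obesity-resistant libraries came from mice fed a high-fat diet, and the 4 control libraries from mice fed regular chow. The labels give neither age, sex, length of feeding nor the weight that made a mouse prone or resistant. They also do not say that each library came from a separate animal, so p-values measure only the spread between these samples, which may be technical. Each library held between 35583997 and 37327770 counts.

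BMPs are secreted ligands of the transforming growth factor beta family. A ligand dimer brings type I and type II serine/threonine kinase receptors together, the type I receptor phosphorylates Smad1, Smad5 or Smad9, and these enter the nucleus with Smad4 and switch on targets such as the Id genes. In brown fat, mouse work has tied Bmp7 to the formation of brown adipocytes and Bmp8b to heat production by mature ones, while Acvr1c (ALK7), an activin-type receptor, restrains fat breakdown in adipocytes.

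Bmp8b counts were higher in all 6 high-fat diet libraries than in all 4 control libraries. Bmp8b (identifier 12164) lies on chromosome 4, from 123104308 to 123126094 on GRCm38.p6. The RSEM expected counts, which are estimates of reads per gene and need not be whole, were 103.0, 134.0 and 32 in the obesity-prone libraries and 128.0, 93.0 and 89.9 in the obesity-resistant libraries. In the control libraries they were 10, 14, 4 and 13. No obesity-prone or obesity-resistant library overlapped the control libraries, and obesity-prone replicate 3 lay nearest to them. Counting error alone gave that library an exact 95% Poisson interval of 21.9 to 45.2 counts, and the highest control library one of 7.65 to 23.5, which overlap slightly.

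On the scale of CPM (counts scaled to the library size), Bmp8b averaged 2.38 ± 1.42 in obesity-prone (SD, n = 3), 2.84 ± 0.622 in obesity-resistant (n = 3) and 0.287 ± 0.126 in control libraries (n = 4). The ratio of the mean CPM was 8.30 for obesity-prone over control and 9.91 for obesity-resistant over control. In edgeR's quasi-likelihood test, with Benjamini-Hochberg adjustment over all 19676 genes tested, the log2 fold change was 3.04 ± 0.50 (SE) for obesity-prone over control (adjusted p = 0.0148). The same quantity was 3.29 ± 0.50 for obesity-resistant over control (adjusted p = 0.0411). These 2 comparisons share the control libraries. Between the high-fat diet groups the values overlapped, and the log2 fold change for obesity-prone over obesity-resistant was -0.26 ± 0.47 (adjusted p = 0.815). In bulk tissue, fewer cells of a type and less RNA per cell cannot be told apart.

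Leaving out 1 library could end the calls of Bmp8b, though no such fit changed their direction. The adjusted p of obesity-prone over control was 0.0528 without control replicate 3. That of obesity-resistant over control was 0.0667 without obesity-prone replicate 1, between 0.128 and 0.209 without obesity-resistant replicate 1, 2 or 3, and between 0.112 and 0.144 without control replicate 1, 2 or 3. Fitting only the 2 groups compared gave adjusted p = 0.0569 for obesity-prone and 0.0068 for obesity-resistant over control.

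The difference was smaller per unit of transcript length. FPKM (fragments scaled to transcript length and library depth), as the authors deposited it, was 1.22, 1.44 and 0.53 for Bmp8b in the obesity-prone libraries and 1.33, 1.12 and 0.92 in the obesity-resistant libraries, against 0.32, 0.60, 0.19 and 0.35 in the control libraries. Here obesity-prone replicate 3 fell below control replicate 2, so the groups overlapped, while the obesity-resistant libraries all stayed above the control libraries. The ratio of the mean FPKM was 2.91 for obesity-prone and 3.08 for obesity-resistant over control. With limma on log2(FPKM + 0.5), the log2 fold change of Bmp8b was 0.82 (adjusted p = 0.0618) and 0.92 (adjusted p = 0.107) for these comparisons, neither past the threshold of 0.05. An added constant of 0.1, tried after the low FPKM values were seen, gave 1.30 (adjusted p = 0.0597) and 1.45 (adjusted p = 0.103).

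The gap between the scales lies in the transcript length that the authors' values imply. Dividing the count by FPKM and by the library total returns the length RSEM used for the gene in that library, which is a mean over the gene's transcripts weighted by their estimated abundance. For Bmp8b it was 2261, 2508 and 1657 bases in the obesity-prone libraries, 2635, 2334 and 2690 bases in the obesity-resistant libraries, and 851, 645, 564 and 1018 bases in the control libraries. The high-fat diet libraries did not overlap the control libraries, and obesity-prone replicate 3 was the shortest of them. The ratio of the mean lengths was 2.78 for obesity-prone and 3.32 for obesity-resistant over control.

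So large a length ratio was rare in the table. Of 16387 genes with at least 0.15 FPKM in every library, 1 (0.0061%), Bmp8b itself, lay as far from 1 as Bmp8b in either comparison, and the median size of the log2 length ratio was 0.014. Among 784 other genes whose control libraries averaged at most 20 counts, the highest ratio was 2.0 for obesity-prone and 1.87 for obesity-resistant over control. This measure was chosen after the values were seen, and each control length rests on only 4 to 14 counts. It is also built from the counts that put Bmp8b on the list. Genes with only one transcript, whose length can hardly move, were not set apart. The place of Bmp8b among all genes is thus a description and no independent support. Whether a different mix of transcripts or the way few reads were assigned set the lengths was not tested.

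**Figure D1:**
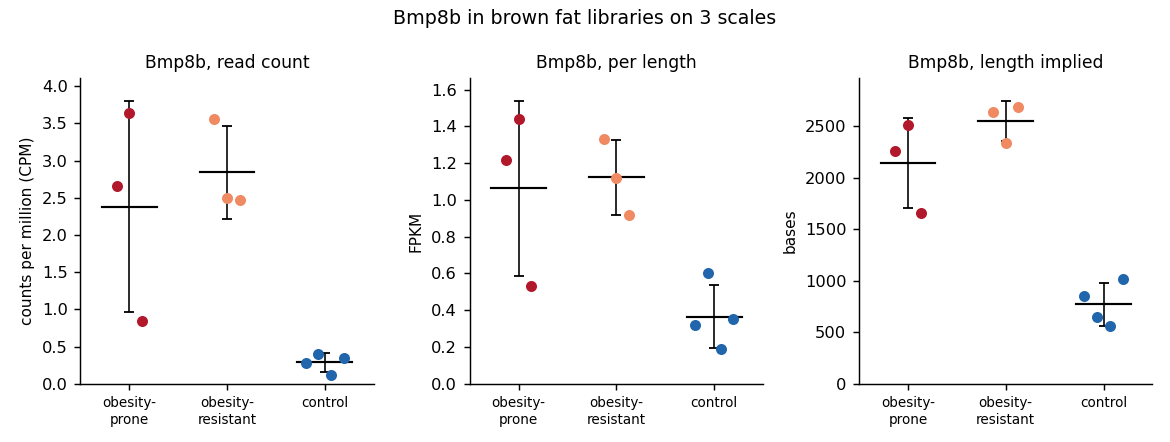
Bmp8b in each library as CPM (left), FPKM (middle) and implied transcript length in bases (right), with a point per library, the group mean as a bar and the SD as an error bar. CPM and length separate all 6 high-fat diet libraries from the 4 control libraries, whereas on FPKM obesity-prone replicate 3 at 0.53 lies under control replicate 2 at 0.60.

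The GENCODE annotation of GRCm38 lists 2 transcripts of Bmp8b, both on the + strand. Bmp8b-201, the protein-coding one, has 7 exons and 2940 bases. Bmp8b-202, a processed transcript with no coding sequence, has 6 exons and 1326 bases. It starts inside intron 3 of Bmp8b-201, shares 386 bases with it and runs on into the neighbouring gene Ppie, where its last 2 exons lie. The implied lengths of the control libraries were shorter than Bmp8b-202, and those of all high-fat diet libraries were longer than it and shorter than Bmp8b-201. A weighted mean of 2 lengths lies between them. The control lengths of 564 to 1018 bases therefore lie outside what these 2 transcripts alone can give. Implied and annotated lengths can differ slightly. For Oxct2b, a gene in intron 3 with an annotated transcript of 1735 bases, the implied length was 1697 to 1732 bases in obesity-resistant libraries. Which transcripts the authors' gene set held for Bmp8b is not given in the sources used here. The junctions that tell the 2 transcripts apart are shown because a read across one of them would show that this transcript was present. Such reads were not examined. Capitals mark the first 25 bases of the exon they share (exon 4 of Bmp8b-201, exon 2 of Bmp8b-202), and lower case the end of the exon before it, chr4:123115146-123115294 for Bmp8b-201 and chr4:123119324-123119765 for Bmp8b-202.
Bmp8b-201: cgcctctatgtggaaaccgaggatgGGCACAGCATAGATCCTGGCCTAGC
Bmp8b-202: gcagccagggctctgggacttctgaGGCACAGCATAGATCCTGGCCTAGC

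**Figure D2:**
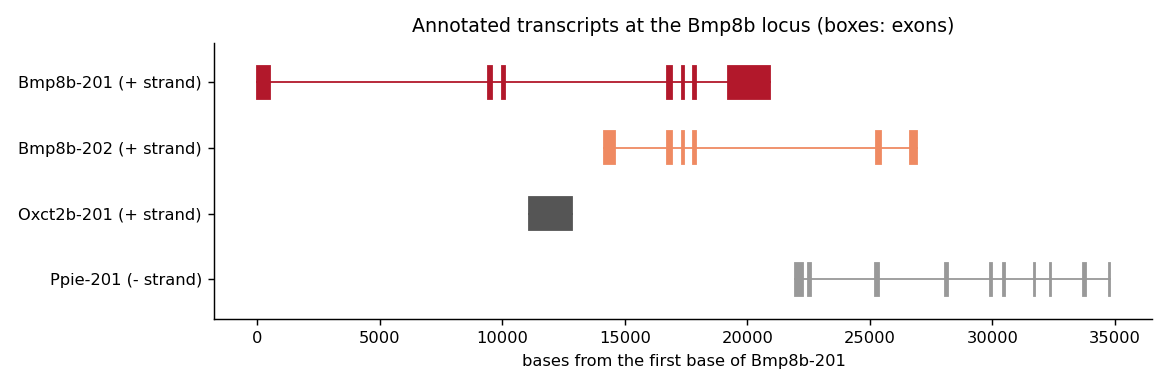
Exons (boxes) and introns (lines) of the annotated transcripts at the Bmp8b locus, in bases from the first base of Bmp8b-201. Oxct2b lies whole within intron 3 of Bmp8b-201, and the last 2 exons of Bmp8b-202 lie within Ppie, which runs on the opposite strand.

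Ppie and Bmp8b-202 could share reads, since a strand setting for the counting is not given in the sources used here. Bmp8b-201 ends before Ppie. Ppie, a peptidyl-prolyl isomerase gene on the - strand, contains 498 bases of Bmp8b-202, of which 133 lie on Ppie exons. It had 244, 200 and 207 counts in the obesity-prone, 192, 224 and 233 in the obesity-resistant, and 192, 185, 182 and 224 in the control libraries, with no separation of the groups. Its log2 fold change was 0.06 for obesity-prone and 0.11 for obesity-resistant over control. Oxct2b, a ketone body transferase gene in intron 3 on the same strand as Bmp8b, overlaps no exon of either Bmp8b transcript. It had 7, 18 and 2 counts in the obesity-prone libraries and 20.9, 14 and 16.6 in the obesity-resistant libraries. In the control libraries it had 0, 2, 1 and 2. Its counts in the obesity-resistant libraries lay above all control libraries, while obesity-prone replicate 3 was level with the highest of them. The log2 fold change of Oxct2b was 2.66 (adjusted p = 0.0701) for obesity-prone and 3.64 (adjusted p = 0.0772) for obesity-resistant over control in edgeR, past the threshold in neither.

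Bmp8a (identifier 12163, chromosome 4, 123312645 to 123343252), the close paralog of Bmp8b, was nearly absent. Its counts were 3.05, 1.02 and 1 in the obesity-prone, 1.03, 9.99 and 4.15 in the obesity-resistant, and 1, 4, 0 and 3 in the control libraries. The groups overlapped, and Bmp8a was the 1 member that did not pass the filter on low counts, so no test was made. Because the paralogs share sequence, reads of the shared stretches cannot be assigned to either with certainty. Of all 50-base windows of Bmp8b-201, 7.26% also occur in a Bmp8a transcript, and of all 100-base windows 3.84%. The longest identical run is shown as an example of a stretch where the genes cannot be told apart. It has 182 coding bases across exons 2 and 3 (chr4:123114693-123115262 on the + strand of GRCm38, intron left out).
Bmp8b-201: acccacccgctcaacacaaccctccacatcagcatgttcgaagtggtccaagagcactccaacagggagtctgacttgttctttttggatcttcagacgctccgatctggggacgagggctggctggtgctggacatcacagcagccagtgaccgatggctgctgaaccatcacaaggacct

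Bmp2 and Bmp4, ligands of the type I receptor Bmpr1a that take part in the commitment of progenitor cells to fat, were measured at low counts. Bmp2 (identifier 12156) had 79, 83 and 130 counts in the obesity-prone libraries and 55, 67 and 65 in the obesity-resistant libraries, against 74, 62, 55 and 68 in the control libraries. On the CPM scale the obesity-prone libraries all lay above the obesity-resistant ones, at 2.04 to 3.42 against 1.53 to 1.80 CPM, and overlapped the control libraries at 1.57 to 2.07 CPM. Bmp2 had a log2 fold change of 0.50 ± 0.21 for obesity-prone over control (adjusted p = 0.143 in edgeR), -0.09 ± 0.21 for obesity-resistant over control (adjusted p = 0.863) and 0.59 ± 0.22 for obesity-prone over obesity-resistant (adjusted p = 0.273). Its highest value was in obesity-prone replicate 3, the library in which Bmp8b was lowest among the high-fat diet libraries.

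Bmp4 (identifier 12159) had 50, 41 and 86 counts in the obesity-prone, 49, 24 and 65 in the obesity-resistant, and 34, 42, 50 and 37 in the control libraries. All 3 groups overlapped, and obesity-prone replicate 3 was again the highest. Bmp4 had a log2 fold change of 0.44 ± 0.36 for obesity-prone over control (adjusted p = 0.444 in edgeR) and 0.14 ± 0.36 for obesity-resistant over control (adjusted p = 0.878). Bmp7 (identifier 12162), the ligand tied to brown fat formation, was near the limit of detection. It had 9, 4 and 6 counts in the obesity-prone libraries, 0, 11 and 17 in the obesity-resistant libraries and 13, 12, 6 and 2 in the control libraries. Its values scattered as widely within the obesity-resistant group as over all libraries, and a difference of Bmp7 was not detectable at this depth (adjusted p = 0.760 for obesity-prone and 0.955 for obesity-resistant over control in edgeR).

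Bmpr1a, Acvr1c and Bmpr2 were far more abundant than the ligands among the members. On FPKM, Acvr2b overlapped Bmp8b in each high-fat diet group but lay above it in the control libraries. None of these 4 receptors was called by edgeR in any comparison. Bmpr1a (identifier 12166), a type I receptor for BMPs, had 2873, 3652 and 2894 counts in the obesity-prone libraries and 3583, 2757 and 2758 in the obesity-resistant libraries, against 2709, 2052, 2043 and 2434 in the control libraries. The lowest library of each high-fat diet group had more counts than the highest control library, but after correction for library size control replicate 1, at 75.7 CPM, lay above the lowest library of each. The log2 fold change of Bmpr1a was 0.36 ± 0.15 in both comparisons with control (adjusted p = 0.141 for obesity-prone and 0.236 for obesity-resistant in edgeR).

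Acvr1c (identifier 269275), the activin-type receptor of adipocytes, had 6119, 6968 and 5833 counts in the obesity-prone, 6928, 6328 and 7956 in the obesity-resistant, and 6556, 6076, 8028 and 6723 in the control libraries. The groups overlapped, with control replicate 3 the highest at 228.8 CPM. In the fit, the log2 fold change of Acvr1c was -0.20 ± 0.13 for obesity-prone over control (adjusted p = 0.341 in edgeR) and 0.01 ± 0.13 for obesity-resistant over control (adjusted p = 0.976).

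Bmpr2 (identifier 12168), the type II receptor for BMPs, varied least. Its mean was 203 ± 1.5 CPM in obesity-prone (SD, n = 3), 206 ± 6.89 CPM in obesity-resistant (n = 3) and 205 ± 7.67 CPM in control libraries (n = 4). The log2 fold change of Bmpr2 was -0.02 ± 0.08 for obesity-prone and 0.01 ± 0.08 for obesity-resistant over control. Acvr2b (identifier 11481), a type II receptor for activins and BMPs, had 391, 358 and 457 counts in the obesity-prone, 471, 345 and 405 in the obesity-resistant, and 346, 341, 336 and 351 in the control libraries. Its control libraries lay close together and overlapped both other groups, with a log2 fold change of 0.14 ± 0.13 for obesity-prone and 0.21 ± 0.13 for obesity-resistant over control (adjusted p = 0.501 and 0.414 in edgeR).

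Smad9, the receptor-activated Smad that is less studied than Smad1 and Smad5 (identifier 55994), had 114, 135 and 107.2 counts in the obesity-prone libraries and 185.9, 147.0 and 132 in the obesity-resistant libraries, against 67.0, 95.1, 63.4 and 143.8 in the control libraries. Control replicate 4 lay within the range of the high-fat diet libraries, and the other 3 control libraries lay below all of them. In edgeR, the log2 fold change of Smad9 was 0.29 ± 0.27 for obesity-prone over control (adjusted p = 0.514) and 0.72 ± 0.27 for obesity-resistant over control (adjusted p = 0.201). Without control replicate 4 the change for obesity-resistant over control was 0.99 and passed the threshold (adjusted p = 0.0432).

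**Figure D3:**
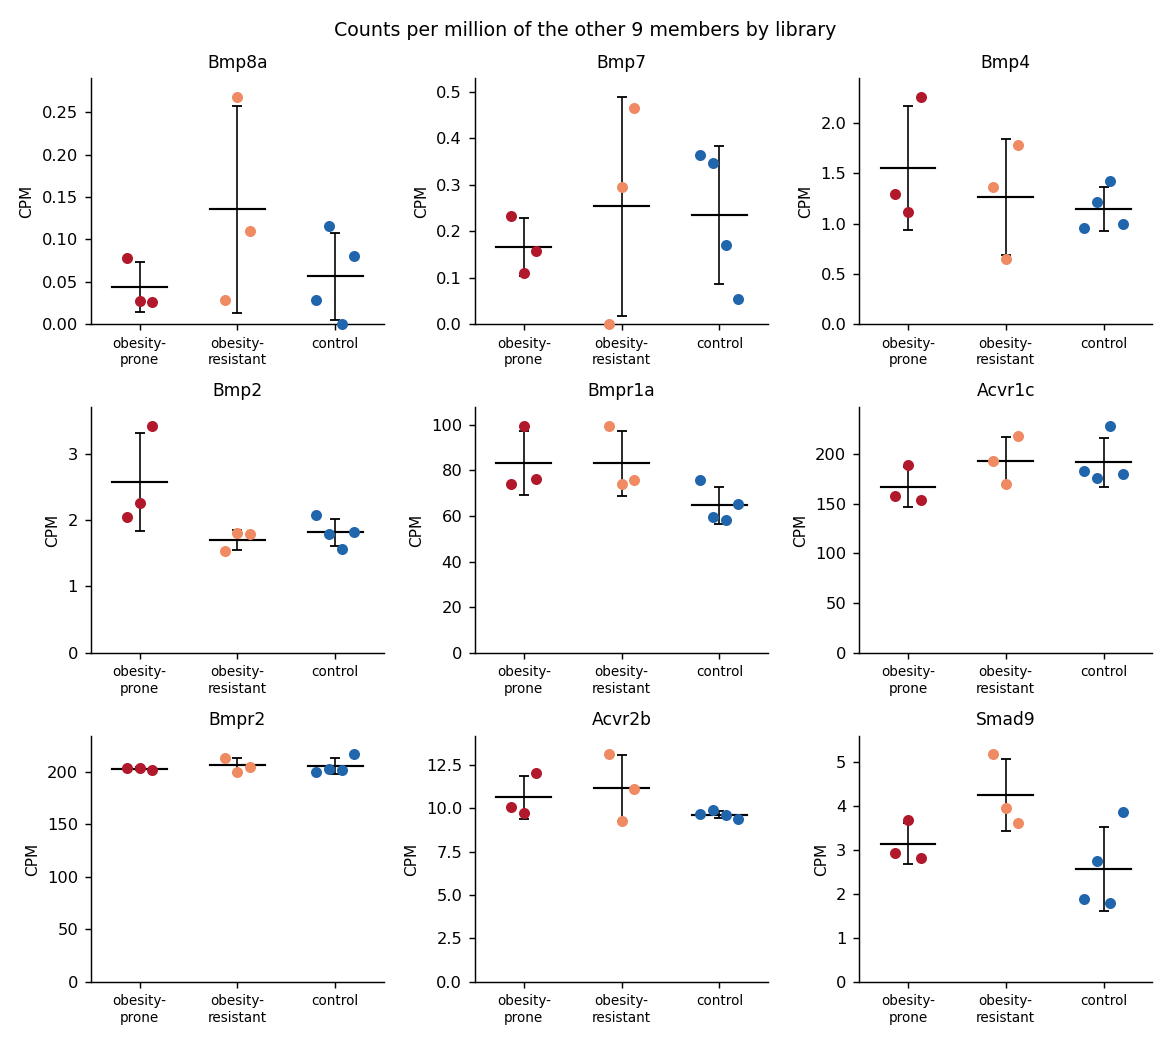
CPM of the 9 members other than Bmp8b, with a point per library, the group mean as a bar and the SD as an error bar, on axes that start at 0. Among these panels, only in Bmp2 do the obesity-prone libraries (2.04 to 3.42 CPM) lie apart from the obesity-resistant ones (1.53 to 1.80 CPM), and in Smad9 control replicate 4 (3.86 CPM) stands above the other control libraries and the obesity-prone libraries.

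Compared per length, the members fell into 3 levels. Over the 10 libraries, mean FPKM was 21.9 for Bmpr1a, 21.5 for Acvr1c and 19.2 for Bmpr2. Their ranges over libraries overlapped, so their order is not fixed. Well below came Acvr2b at 1.32, Bmp8b at 0.802, Bmp4 at 0.776, Smad9 at 0.635 and Bmp2 at 0.580 FPKM, each overlapping the next. The Bmp8b mean pools the diets: in control libraries alone Bmp8b, at 0.19 to 0.60 FPKM, lay below Acvr2b at 1.10 to 1.38 FPKM. Bmp7 at 0.061 and Bmp8a at 0.034 FPKM were lowest and again overlapped each other. The ranges of Bmpr2 and Acvr2b, and those of Bmp2 and Bmp7, did not overlap. The implied length that differed by diet in Bmp8b was similar between groups in Bmpr2 and Acvr1c, with group means of 10620, 10640 and 10680 bases for Bmpr2 and 8536, 8614 and 8560 bases for Acvr1c in obesity-prone, obesity-resistant and control libraries. In Bmpr1a it varied more within groups, from 3138 to 3725 bases in obesity-prone, 2881 to 3837 bases in obesity-resistant and 3390 to 3647 bases in control libraries, which overlapped.

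Counted over the list, 1 of the 9 members tested was called higher and 0 lower for obesity-prone over control, where edgeR called 7.00% of all genes tested in either direction. The count was again 1 of 9 for obesity-resistant over control, against 0.142% of all genes. In both cases the member was Bmp8b, whose values had put it on the list, so nothing is read from these counts. At an unadjusted p below 0.05 there were 3 of the 9 members in each of the 2 comparisons, against 28.1% of all genes for obesity-prone and 18.0% for obesity-resistant over control. For obesity-prone over obesity-resistant edgeR called 0 members and 0% of all genes. At an unadjusted p below 0.05 there was 1 member, Bmp2, and 3030 genes (15.4%), while DESeq2 called 0 members and 565 genes. The CPM ranges of the groups did not overlap for 1 of 9 members in each comparison, against 20.3% of all genes for obesity-prone over control, 20.2% for obesity-resistant over control and 19.7% for obesity-prone over obesity-resistant. That share of the members is no higher than the background. Their median log2 fold change was 0.29, 0.14 and -0.07 in these comparisons, beside 0.0047, -0.0061 and -0.0075 for all genes tested.

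**Figure D4:**
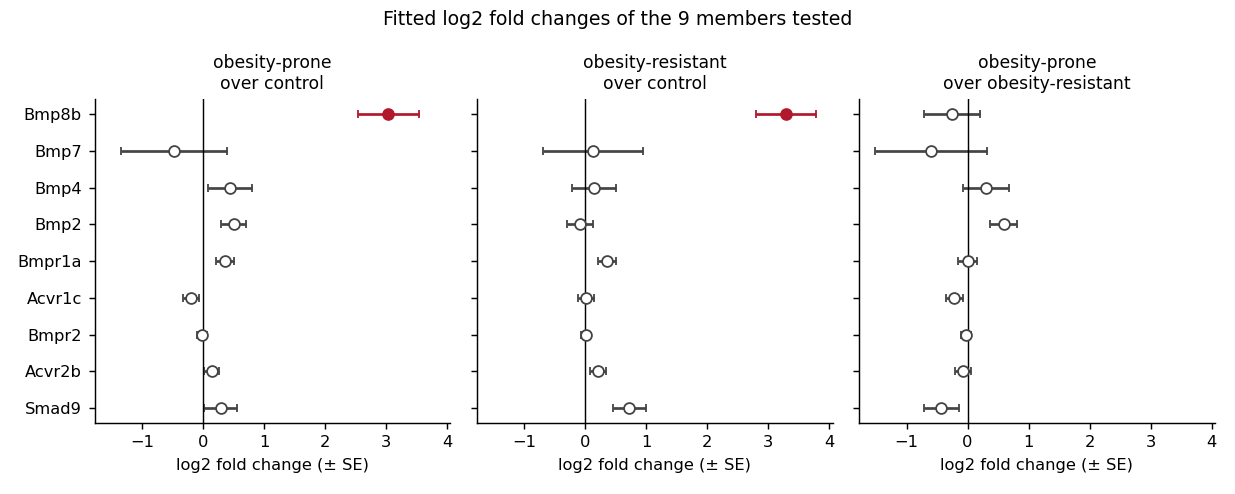
Fitted log2 fold changes (edgeR, x axis) with their SE for the 9 members tested, one panel per comparison. Filled points passed an adjusted p of 0.05: Bmp8b at 3.04 and 3.29 stands apart from the other members in both comparisons with control, and lies at -0.26 for obesity-prone over obesity-resistant.

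The rest of the pathway was read from a list of 74 other genes, drawn up by role, of which 70 were found by name and 54 passed the filter. For obesity-prone over control 5 were called higher (Inhbb, Smad4, Smad7, Id3 and Hey1) and 1 lower (Id2), against 7.00% of all genes, and 25 of the 54 had an unadjusted p below 0.05, against 28.1% of all genes. The median log2 fold change of the 54 was 0.22. For obesity-resistant over control edgeR called 0 of them, with 8 at an unadjusted p below 0.05 (18.0% of all genes), and DESeq2 called 3 of them and 1138 of all genes. For obesity-prone over obesity-resistant edgeR also called 0, with 19 at an unadjusted p below 0.05 (15.4% of all genes), and DESeq2 called 2 of them and 565 of all genes. On CPM, 12 of the 54 lay wholly above and 5 wholly below for obesity-prone over control, where ranges did not overlap for 20.3% of all genes. For obesity-resistant over control these were 2 and 4 (20.2% of all genes), and for obesity-prone over obesity-resistant 14 and 3 (19.7%). The genes were measured in the same libraries and are not independent, so no excess is read from these counts. That a gene passed in one comparison and not in another does not show that the groups differ.

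Among the 11 ligands tested, Inhbb, the activin beta B subunit, was the only one called. Of all genes, 7.00% were called for obesity-prone over control. It had 146, 70 and 736 counts in the obesity-prone libraries and 42, 33 and 86 in the obesity-resistant libraries, against 65, 30, 30 and 33 in the control libraries. Obesity-prone replicate 3 held most of the obesity-prone counts, and replicate 2 lay just above the highest control library. The log2 fold change of Inhbb was 2.91 ± 0.72 for obesity-prone over control (adjusted p = 0.0425 in edgeR), but 1.36 without obesity-prone replicate 3 (adjusted p = 0.126). Its call was also lost on leaving out obesity-prone replicate 1, any obesity-resistant library or any control library (adjusted p from 0.0538 to 0.123). Bmp6, the ligand with the highest mean FPKM in the list, was at 16.1 to 20.2 FPKM in obesity-prone, 14.3 to 19.5 in obesity-resistant and 12.1 to 19.9 in control libraries, which overlapped.

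None of the 5 receptors and 6 co-receptors tested was called in any comparison by edgeR, with 3 and 1 of them at an unadjusted p below 0.05 for obesity-prone over control, 0 and 1 for obesity-resistant over control and 2 and 0 for obesity-prone over obesity-resistant. Of all genes 28.1%, 18.0% and 15.4% lay below that p in these comparisons. Acvrl1, the BMP9 and BMP10 receptor of endothelium, had the highest mean FPKM of the receptors in this list, at 12.6 to 14.6 in obesity-prone, 10.2 to 11.9 in obesity-resistant and 7.26 to 13.8 in control libraries. Tgfbr3 (betaglycan), a co-receptor that presents ligands, was at 66.3 to 71.1 FPKM in obesity-prone, 76.8 to 86.3 in obesity-resistant and 77.2 to 98.1 in control libraries. On this scale the obesity-prone libraries lay below both other groups. On CPM they lay below all control libraries, at 184.3 to 202.3 against 206.1 to 241.9 CPM, but overlapped the obesity-resistant libraries. The log2 fold change of Tgfbr3 was -0.16 ± 0.10 for obesity-prone over control (adjusted p = 0.294 in edgeR).

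Of the 9 Smads and Smad regulators tested, 2 were called higher for obesity-prone over control, against 7.00% of all genes called in either direction. Smad7, the inhibitory Smad that BMP and transforming growth factor beta signals induce, had 86.1, 81.4 and 77.3 CPM in the obesity-prone libraries and 82.4, 52.8 and 51.2 CPM in the obesity-resistant libraries, against 26.6, 48.0, 27.5 and 51.4 CPM in the control libraries. The obesity-prone libraries lay above all control libraries, and the obesity-resistant group reached from the one level to the other. Smad7 had a log2 fold change of 1.09 ± 0.25 for obesity-prone over control (adjusted p = 0.0351 in edgeR) and 0.70 ± 0.25 for obesity-resistant over control (adjusted p = 0.198). Smad4, the Smad shared by all branches of the family, was at 74.1 to 77.9 CPM in obesity-prone, 69.2 to 76.0 in obesity-resistant and 60.7 to 63.6 in control libraries. Neither high-fat diet group overlapped the control libraries, and the log2 fold change of Smad4 was 0.31 ± 0.07 for obesity-prone over control (adjusted p = 0.0290 in edgeR) and 0.23 ± 0.07 for obesity-resistant over control (adjusted p = 0.125). Both calls were lost on leaving out obesity-prone replicate 1 or 3, obesity-resistant replicate 3 or control replicate 1, 2 or 3, and that of Smad7 also without obesity-resistant replicate 2, with adjusted p from 0.0510 to 0.0998.

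The 13 extracellular inhibitors and processing enzymes tested held 0 calls in each comparison by edgeR, with 5, 2 and 5 at an unadjusted p below 0.05 for obesity-prone over control, obesity-resistant over control and obesity-prone over obesity-resistant, against 28.1%, 18.0% and 15.4% of all genes. Fstl1, a follistatin-like secreted protein, had the highest mean FPKM of them, at 11.01 to 26.3 in obesity-prone, 9.34 to 12.8 in obesity-resistant and 9.40 to 18.2 in control libraries, which overlapped.

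Of the 10 target genes tested, 2 were called higher and 1 lower for obesity-prone over control, where 7.00% of all genes were called. Hey1, a transcriptional repressor induced by Notch and BMP signals, had 14.0, 12.9 and 11.8 CPM in the obesity-prone libraries and 11.1, 6.04 and 7.95 CPM in the obesity-resistant libraries, against 3.30, 5.19, 2.96 and 6.13 CPM in the control libraries. All obesity-prone libraries lay above all others. Hey1 had a log2 fold change of 1.55 ± 0.27 for obesity-prone over control (adjusted p = 0.0177 in edgeR), and the adjusted p was 0.0541 without control replicate 3. It was 0.93 ± 0.27 for obesity-resistant over control (adjusted p = 0.125).

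Id3, an inhibitor of basic helix-loop-helix factors and a direct Smad target, had 32.9, 29.9 and 36.6 CPM in the obesity-prone libraries and 27.2, 22.4 and 27.5 CPM in the obesity-resistant libraries, against 14.9, 17.6, 17.6 and 23.8 CPM in the control libraries. The obesity-prone libraries lay above all others, and control replicate 4 reached into the obesity-resistant range. Id3 had a log2 fold change of 0.84 ± 0.15 for obesity-prone over control (adjusted p = 0.0198 in edgeR), with adjusted p = 0.0549 and 0.0677 without control replicate 2 or 3. It was 0.48 ± 0.15 for obesity-resistant over control (adjusted p = 0.151), and 0.62 without control replicate 4 (adjusted p = 0.0272). That library also moved Hey1 past the threshold for obesity-resistant over control when left out (log2 fold change 1.13, adjusted p = 0.0432).

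Id2, of the same family, went the other way. It had 8.41, 7.53 and 5.90 CPM in the obesity-prone libraries and 10.9, 10.8 and 9.27 CPM in the obesity-resistant libraries, against 12.6, 10.98, 17.7 and 10.98 CPM in the control libraries. The obesity-prone libraries lay below all others, and the obesity-resistant libraries lay narrowly below all control libraries. Id4, which was not called, also lay below all control libraries on CPM in the obesity-prone group. Id2 had a log2 fold change of -0.84 ± 0.19 for obesity-prone over control (adjusted p = 0.0316 in edgeR), and its call was lost on leaving out obesity-prone replicate 1 or 3, any obesity-resistant library or control replicate 1, 2 or 3 (adjusted p from 0.0508 to 0.0830). Id1, a direct Smad target, had the highest FPKM of the targets as a mean over the 10 libraries, though Id3 was higher in each obesity-prone library. Its FPKM of 21.7 to 33.1 overlapped in all groups, with a log2 fold change of 0.07 ± 0.14 for obesity-prone and 0.08 ± 0.14 for obesity-resistant over control.

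**Figure D5:**
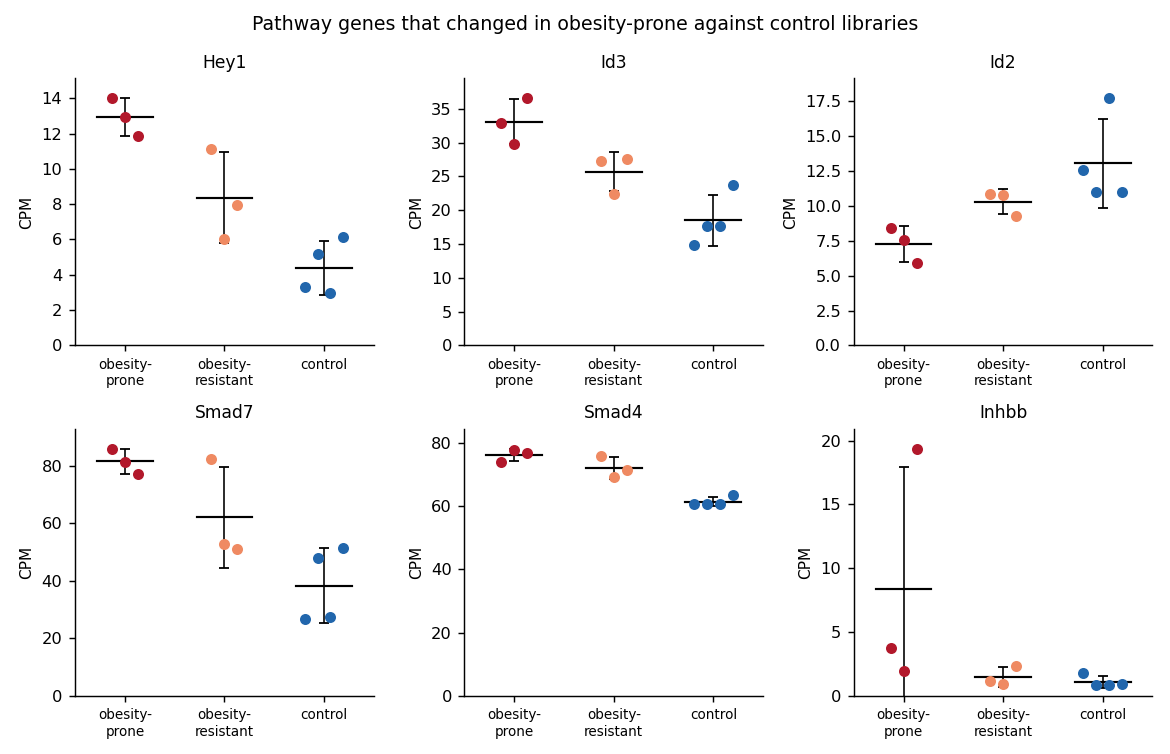
CPM of the 6 pathway genes called for obesity-prone over control, with a point per library, the group mean as a bar and the SD as an error bar, cut at 0 for Inhbb. Hey1 and Id3 are higher and Id2 lower in all obesity-prone libraries than in all others, while the mean of Inhbb in the obesity-prone group rests on 1 library at 19.4 CPM.

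The genes whose log2 CPM followed that of Bmp8b most closely over the 10 libraries, out of 13736 compared, were Tbc1d12 (Pearson r = 0.979), Fam131c (0.970), Lcor (0.966), Rprd1a (0.964) and Ccdc163 (0.962). These r values describe points that share libraries and group means, and carry no test. Their changes were smaller than that of Bmp8b. The log2 fold changes for obesity-prone over control were 0.25 for Tbc1d12, 1.65 for Fam131c, 0.24 for Lcor, 0.45 for Rprd1a and 0.72 for Ccdc163, and for obesity-resistant over control 0.27, 1.99, 0.26, 0.63 and 1.07 in the same order. Fam131c shared the low value of Bmp8b in obesity-prone replicate 3, at 2.11 CPM against 6.37 and 6.17 CPM in the other obesity-prone libraries and 1.31 to 1.82 CPM in control libraries.

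Brown adipocyte markers were high throughout, with 10 of 10 found and none at 0. Their summed level was 9012, 11113 and 4000 CPM in the obesity-prone libraries, 11672 to 12709 CPM in the obesity-resistant libraries and 8794 to 12723 CPM in the control libraries. The 5 general adipocyte markers summed to 4942 to 5234 CPM in obesity-prone and 5003 to 5269 CPM in obesity-resistant libraries, against 5778 to 6972 CPM in control libraries. All 6 high-fat diet libraries thus lay below all control libraries in this sum. Among single genes, CPM ranges did not overlap for 20.3% of all genes for obesity-prone and 20.2% for obesity-resistant over control. Of the 5 adipocyte markers 1, Fabp4, was called lower for obesity-prone over control (log2 fold change -0.52, adjusted p = 0.0471 in edgeR). In the same comparison 2 of 7 macrophage markers and 1 of 3 white adipocyte markers tested were called higher. The 1 mesothelial marker tested was called lower. Of all genes, 7.00% were called in this comparison. Obesity-prone replicate 3, where Bmp8b was low and Inhbb, Bmp2 and Bmp4 were high, had the lowest brown adipocyte level. It also had the highest level of 7 macrophage markers, at 421.8 CPM against 153.6 and 289.3 CPM in the other obesity-prone, 107.4 to 126.3 CPM in obesity-resistant and 108.8 to 186.4 CPM in control libraries. The 5 white adipocyte markers found summed to 777 CPM in that library and to between 30.8 and 140.2 CPM in the other 9. Progenitor and fibroblast markers (7 found) summed to 924 CPM in that library, against 415 and 562 CPM in the other obesity-prone, 324 to 364 CPM in obesity-resistant and 346 to 516 CPM in control libraries. Endothelial markers, of which 7 of 7 were found, summed to 923 to 1111 CPM in obesity-prone, 849 to 1043 CPM in obesity-resistant and 592 to 1108 CPM in control libraries. Erythrocyte markers summed to 15268 CPM in obesity-prone replicate 3 and to between 494 and 4265 CPM in the other 9 libraries, and skeletal muscle markers varied within each group (1.33 to 54.1 CPM in obesity-prone, 2.09 to 524.8 CPM in obesity-resistant and 0.857 to 594.8 CPM in control libraries). Mesothelial markers were low, at 0.593 to 0.979 CPM in obesity-prone, 1.66 to 2.17 CPM in obesity-resistant and 2.41 to 8.01 CPM in control libraries. Pericyte markers (679 to 940 CPM) and nerve markers (4.66 to 22.6 CPM) overlapped between all groups. The part of these differences in the values of Bmp8b and the other ligands, of Hey1 and of the Id genes was not tested.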

How the data were processed

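RNA sequencing of brown adipose tissue was analysed in 10 libraries. Per the labels' protocols, the authors used Bowtie2 2.2.5 for alignment against a gene set that the sequencing company had assembled, and RSEM 1.2.12 for expression. HISAT2 2.0.4 and GRCm38.p6 are named in the submitters' processing notes. The deposited table holds RSEM expected counts, which are not normalised (30.4% were not whole), and FPKM values per gene and library. The authors' 6 group-mean columns were not used. A strand setting is not given in the sources used here.

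Expected counts were rounded and fitted in edgeR 4.0.16 (R 4.3.3) with TMM factors, filterByExpr (minimum count 10) and a robust quasi-likelihood test over all 10 libraries with 1 coefficient per group. P-values were adjusted by Benjamini-Hochberg over 19676 genes, and "called" means an adjusted p below 0.05. The fit was tested on simulated data in which 200 genes were changed. The simulated spread was the same for every gene, and the changed genes averaged more counts than Bmp8b had in control libraries. It therefore checks the code and not the precision at such low counts. CPM used TMM-corrected library sizes. Implied length is the count divided by the product of library total and FPKM, scaled to bases. Genes with few counts are the least precise at this depth, and intervals cover counting error only. Gene coordinates came from RefSeq, transcripts and sequences from GENCODE M21.

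The members and lists were chosen with earlier results of these data known. The genes named are all members, every pathway gene called, the pathway gene with the highest mean FPKM in each role, and the 5 genes (mean of at least 1 CPM) closest to Bmp8b in log2 CPM (prior count 2). Oxct2b, Ppie and Id4 were added after the values were seen. Replicate numbers were not used to pair the samples in the main fit, as the labels name no pairing. The correlation of same-numbered libraries ran from -0.146 to 0.206 in 9 pairs, and 4 were over 0.1. Such values cannot show whether same-numbered samples were handled together.

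DESeq2 1.42.0, RLE factors, no filter, a filter of 1 CPM in 3 libraries, fitting just the 2 groups at hand, a block for replicate number, limma 3.58.1 (trend) on log2 FPKM after adding 0.5 or 0.1, leaving out each library and omitting obesity-prone replicate 3 with control replicate 4 were tried as alternatives. Figures were drawn with matplotlib 3.10.9.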

Additional observations from a re-analysis of the deposited data

Results flagged for a closer look

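For 5 of 28 genes examined, 1 control library lay apart from the other 3, where chance gives about 1 in 20 for a single gene. All 28 genes were measured in the same control libraries. They are therefore not independent, and no excess is read from the count. Bmpr2 was at 216.7 CPM and Smad4 at 63.6 CPM in control replicate 4, each the highest control value. Acvr1c was at 228.8 CPM in control replicate 3. Inhbb was at 1.82 CPM and Tgfbr3 at 241.9 CPM in control replicate 1. The groups of 3 libraries were not examined in this way.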

How the results depend on the processing

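Bmp8b kept its direction over control in all 19 alternatives to each comparison, was called in 15 for obesity-prone and 10 for obesity-resistant over control, and had log2 fold changes from 0.82 to 3.55 and from 0.92 to 3.55. No member was called with limma on log2 FPKM at either added constant (0 of the members in both comparisons with control). The fit of only the 2 groups compared called 0 members for obesity-prone over control, and omitting the pair of obesity-prone replicate 3 and control replicate 4 gave 2 for obesity-resistant over control, with Smad9 added. Leaving out each library gave 0 to 1 and 0 to 2 members.

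Genes called for obesity-prone over control (main count 1377) were 3138 with DESeq2, 66 with the 2 groups alone, 2635 without that pair, and 76 to 3040 on leaving out each library. For obesity-resistant over control (28) they were 1138, 391, 2212 and 3 to 864, with 76 under no filter, 68 under the stricter filter and 382 with the replicate block. For obesity-prone over obesity-resistant (0) they were 565 with DESeq2 and 0 to 871 on leaving out each library. Pathway genes called for obesity-prone over control (6) were 16 with DESeq2, 3 under no filter, 0 with the 2 groups alone, 11 without the library pair and 0 to 15 on leaving out each library. For obesity-resistant over control (0) they were 3, with 1 for the 2 groups alone, 1 with the replicate block, 7 without the library pair and 0 to 3 on leaving out each library, and for obesity-prone over obesity-resistant (0) they were 2 with DESeq2 and 0 to 5. With the replicate block, the calls of Inhbb (log2 fold change 2.22, adjusted p = 0.0800 in edgeR) and Smad4 (0.33, adjusted p = 0.0531) were lost. Of 9 libraries, 3 correlated best with their own number. The causes were not tested.

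Small log2 fold changes that were not called changed sign. Over control in obesity-resistant libraries, Bmp7 was -0.30 with the replicate block, -0.20 without the library pair and -0.62 to 0.70 on leaving out each library, Acvr1c -0.016, -0.0079 and -0.072 to 0.11, Bmp4 -0.18 to 0.46, Bmpr2 -0.020 to 0.033, Inhbb -0.10 to 0.76 and Tgfbr3 -0.085 to 6.3e-06. In obesity-prone libraries over control, Bmpr2 was 0.011 with the replicate block, 0.067 and 0.069 with limma, 0.021 without the library pair and -0.029 to 0.012 on leaving out each library, and Id1 -0.021 to 0.17. Between obesity-prone and obesity-resistant libraries, Bmp8b was 0.14 without the library pair and -0.70 to 0.15 on leaving out each library, Bmp4 -0.077 and -0.069 to 0.62, Bmpr1a -0.0024 under no filter and -0.15 to 0.15, Bmp7 -1.17 to 0.15, Bmpr2 -0.043 to 0.0040 and Acvr2b -0.19 to 0.059.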
